A study of Mus musculus with 11 samples.

Results

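The genes described here are 38 genes of DNA repair and of the damage checkpoint, followed in basal progenitors of the mouse cortex at 2 embryonic stages, day 13 (E13) and day 16 (E16). They were chosen by name, as every probe of a raw bead array table whose platform gene symbol was among the 38. Of these genes 37 had a named probe, 86 probes in all, and 31 had a probe bright enough to test, against 10568 genes tested on the whole array. Basal progenitors were sorted by flow cytometry from the embryonic cortex of wild-type embryos, as the ending WT of each array's label is read here, and their total RNA was hybridised as biotin-labelled cRNA to Illumina bead arrays. The E13 group held 6 cortices and the E16 group 5, with 1 array for each, taken from 3 litters a stage. The litter of each embryo, the strain and the sorting marker were not given in the sources read for this work, so the p-values treat embryos of a shared litter as independent.

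A break across both strands of DNA can be repaired from the sister chromatid by homologous recombination, which is open to cells that have replicated their DNA, or rejoined directly by end joining, which also serves cells that no longer divide. The Fanconi proteins unhook crosslinks between the strands and hand the break to recombination, mismatch repair corrects errors of the polymerase, and the excision routes remove damaged bases (base excision) or bulky lesions (nucleotide excision). The kinases Atm and Atr sense the damage and act through Chek2 and Chek1 to hold the cell cycle. In the mouse embryo, dividing neural progenitors and newborn neurons are known to be sensitive to the loss of recombination and end joining factors.

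At E16, 8 of 18 tested genes of recombination, of the Fanconi route and of the checkpoint fell and 1 rose. Among 13 tested mismatch, end joining and excision genes 0 fell and 1 rose, beside 14.1% lower and 13% higher of all genes tested. This pooling of routes was not planned and puts together the routes that held a lower call. The contrast between the pooled counts therefore follows from the calls and is a description. In all, 10 of the 31 tested genes were called, beside 27.1% of all genes tested (limma, Benjamini-Hochberg adjusted p under 0.05 over 10568 genes). Of these, 8 were lower at E16 (25.8%) and 2 were higher (6.45%), beside 14.1% lower and 13% higher of all genes tested. The 8 genes were Rad54l, Xrcc3, Brca1 and Blm of recombination, Fancd2 and Fanci of the Fanconi route, and Chek2 and Chek1 of the checkpoint, with decreases between 1.28-fold and 1.85-fold. The 2 genes that rose were Rad50 of recombination and Xrcc6 of end joining. The median difference of the 31 genes, E16 minus E13 on the log2 scale, was -0.14, beside -0.01 over all genes tested. Detection differed between the stages for 4 of these genes. A probe was tested if 5 or more arrays gave it a detection p-value under 0.05, a rule that the 6 E13 arrays could meet without any E16 array, which favours genes that are lower at E16, and 4 of the 8 genes (Brca1, Xrcc3, Fanci and Chek1) were not detected on every E16 array. Among the 25 genes detected on all 11 arrays 4 were lower (16%) and 2 higher (8%), beside 13.7% and 13.7% of the 9030 such genes on the whole array, so that their lower share was near the background. Of these 25 genes, recombination, Fanconi and checkpoint held 12, with 4 lower and 1 higher, and the other routes held 13, with 0 lower and 1 higher. At an unadjusted p under 0.05 in limma, 3 of those 13 were lower and 1 higher, beside 20.0% and 18.4% of all genes tested. Whether the routes differed from each other was not tested. In sorted bulk samples, fewer cells that carry a transcript and less of it per cell cannot be told apart.

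**Figure D1:**
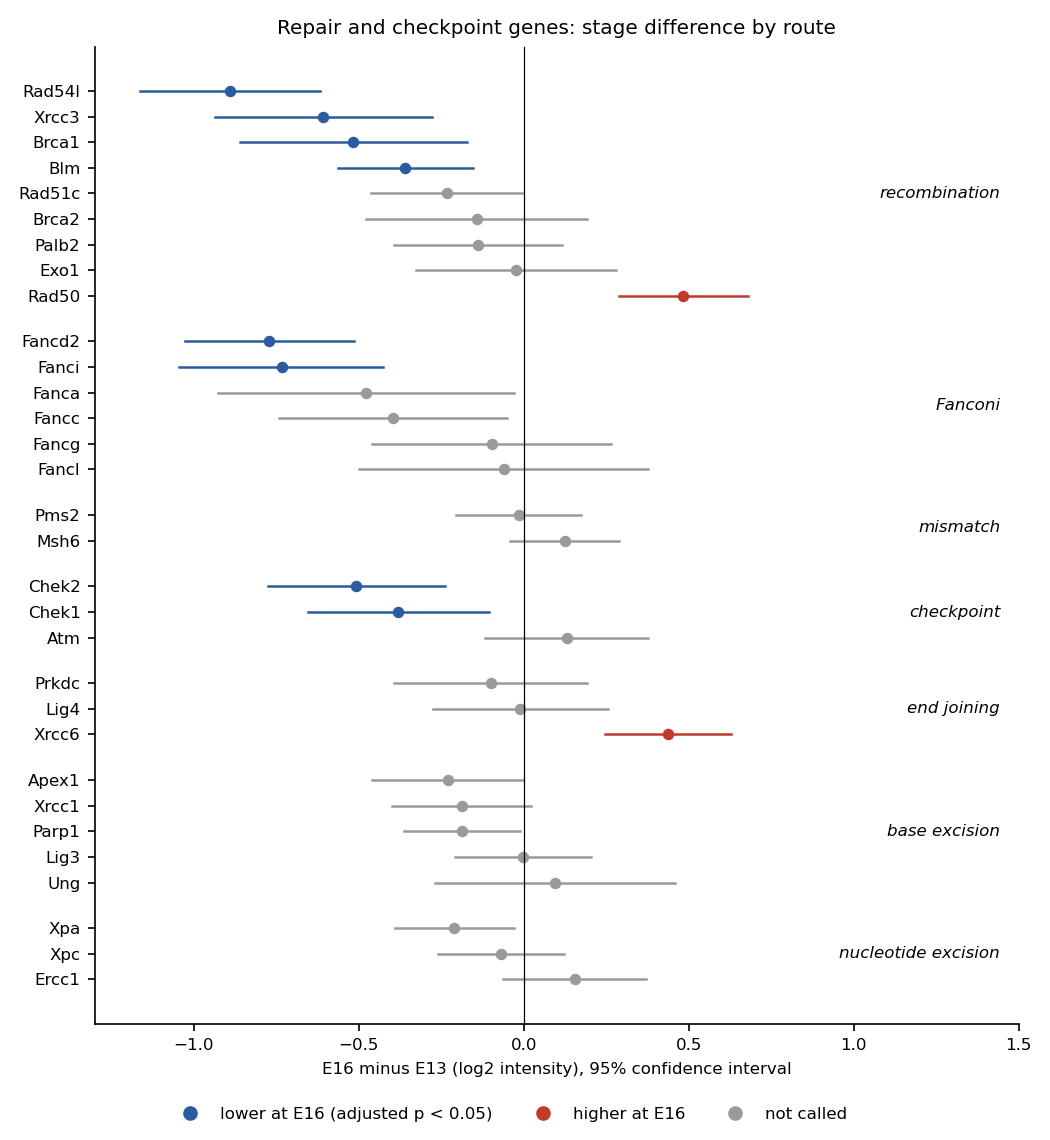
Difference between the stages, E16 minus E13 on the log2 scale, for the 31 tested genes, grouped by repair route. Points are limma estimates, lines are 95% confidence intervals, and colour marks the 8 genes called lower, the 2 called higher and the 21 not called, with Rad54l lowest at -0.89 and Rad50 highest at 0.48.

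The promoters of 4 of these genes are shown because they include the gene with the largest decrease (Rad54l), a further recombination gene that fell (Xrcc3), a checkpoint gene that fell (Chek2) and a gene that rose (Xrcc6). Each window of 300 bases runs from 250 bases before to 50 after the gene's start, in the direction of transcription, from RefSeq on build GRCm38.p6. Capitals mark matches on either strand to TTTCCCGC and TTTGGCGC, letters of E2F sites, to CCAAT, the NF-Y site, and to TTTGAA, the cell cycle homology element known as CHR. The windows lie at chr4:116123641-116123940 (minus strand) for Rad54l, chr12:111813830-111814129 (minus strand) for Xrcc3, chr5:110839733-110840032 (plus strand) for Chek2 and chr15:82016119-82016418 (plus strand) for Xrcc6.
Rad54l: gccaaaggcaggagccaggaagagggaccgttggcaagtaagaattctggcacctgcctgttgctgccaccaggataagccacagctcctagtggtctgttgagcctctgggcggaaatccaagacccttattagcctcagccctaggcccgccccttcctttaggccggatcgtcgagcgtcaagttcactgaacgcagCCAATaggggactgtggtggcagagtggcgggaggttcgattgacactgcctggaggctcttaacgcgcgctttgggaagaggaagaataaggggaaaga
Xrcc3: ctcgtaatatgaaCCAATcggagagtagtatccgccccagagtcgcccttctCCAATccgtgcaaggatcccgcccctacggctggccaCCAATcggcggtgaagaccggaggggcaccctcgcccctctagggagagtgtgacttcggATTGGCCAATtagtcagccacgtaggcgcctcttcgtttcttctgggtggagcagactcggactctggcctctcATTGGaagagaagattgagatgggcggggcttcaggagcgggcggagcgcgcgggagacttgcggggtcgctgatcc
Chek2: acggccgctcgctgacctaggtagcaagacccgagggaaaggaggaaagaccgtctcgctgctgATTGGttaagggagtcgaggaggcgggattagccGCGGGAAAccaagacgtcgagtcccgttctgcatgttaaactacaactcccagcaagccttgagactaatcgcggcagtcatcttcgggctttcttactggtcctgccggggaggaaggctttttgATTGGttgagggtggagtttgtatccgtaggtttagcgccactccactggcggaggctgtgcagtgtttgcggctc
Xrcc6: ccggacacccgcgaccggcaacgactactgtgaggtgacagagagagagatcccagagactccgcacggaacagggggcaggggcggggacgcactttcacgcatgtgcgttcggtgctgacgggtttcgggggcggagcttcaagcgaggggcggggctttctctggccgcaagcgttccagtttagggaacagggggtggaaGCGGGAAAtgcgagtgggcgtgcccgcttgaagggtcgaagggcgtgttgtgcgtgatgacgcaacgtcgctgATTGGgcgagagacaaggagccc
Rad54l had 1 CCAAT and none of the other letters. Xrcc3 had 6 matches to CCAAT, 2 of them side by side in opposite orientation. Chek2 had 2 matches to CCAAT and 1 to TTTCCCGC, and Xrcc6 had 1 of each. Of the 38 genes 31 had a window in the table, and 7 of these 31 held an E2F match (22.6%), all of them to TTTCCCGC, beside 1.8% of the 27025 genes with a window, noncoding genes included. The 7 were Bard1, Brca2, Rad51c, Fancg, Msh6, Chek2 and Xrcc6, so a match was found in 1 of the 7 genes with a window that fell, in 4 of the 18 that were not called, in the 1 that rose and in 1 of the 5 that were not tested. A CCAAT was found in 17 of the 31 genes (54.8%, against 41.1% of all genes with a window) and in 5 of the 7 that fell. TTTGAA was found in 1 of the 31, Bard1 (3.23%, against 20.2%). Of E2F sites only the forms TTTCCCGC and TTTGGCGC were searched. A gene without a match may hold another form, or a site outside its window. The windows were not matched for base composition, and a match is a description of letters, not of binding.

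Recombination had 9 tested genes, of which 4 fell, 1 rose and 4 were not called, with a median difference of -0.23. Rad54l is a motor protein that moves along DNA during recombination, and it had the largest decrease of the 31 genes. Rad54l ranged from 8.70 to 9.24 (median 8.98) on the 6 E13 arrays and read 8.19, 8.10, 8.35, 7.74 and 8.0 on E16 replicates 1 to 5. Every E16 array was below every E13 array. The mean went from 8.96 ± 0.204 (SD, n = 6) to 8.07 ± 0.227 (SD, n = 5), a decrease of 1.85-fold (log2 difference -0.89, SE 0.128, adjusted p = 0.000107 in limma). Xrcc3, a further factor of recombination, was dim. Xrcc3 ranged from 5.58 to 6.0 (median 5.83) on the 6 E13 arrays and read 4.73, 5.21, 5.51, 5.55 and 4.98 on E16 replicates 1 to 5. The stages did not overlap, but the gene was detected on 3 of 5 E16 arrays, so the E16 values lie close to background. Its decrease was 1.52-fold (adjusted p = 0.00831 in limma, log2 difference -0.61). The probe of Xrcc3 met the detection rule through the E13 arrays, so the size is a description. The call was lost without E16 replicates 1 and 2 together (-0.46, adjusted p = 0.0581 in limma).

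Brca1, the ubiquitin ligase that favours the cutting back of broken ends, fell with overlap between the stages. Brca1 ranged from 5.74 to 6.39 (median 5.99) on the 6 E13 arrays and read 4.95, 5.75, 5.62, 5.53 and 5.66 on E16 replicates 1 to 5. E16 replicate 1 stood below the rest of its stage, E16 replicate 2 lay above the lowest E13 array, and the gene was detected on 4 of 5 E16 arrays. The difference was -0.52 (SE 0.161, adjusted p = 0.0267 in limma), and the call was lost without E16 replicate 1 (-0.38, adjusted p = 0.0653), E13 replicate 2 (-0.44, adjusted p = 0.0555) or E13 replicate 5 (-0.48, adjusted p = 0.0563). Blm, a helicase that takes apart joined chromatids, had a bright probe and a small decrease. Blm ranged from 9.63 to 9.96 (median 9.70) on the 6 E13 arrays and read 9.65, 9.30, 9.43, 9.23 and 9.25 on E16 replicates 1 to 5. E16 replicate 1 lay within the E13 range and the other 4 E16 arrays below it. The difference was -0.36 (SE 0.0959, adjusted p = 0.0116 in limma), and a second detected probe of Blm gave -0.35.

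Rad50, the ATPase of the complex that tethers broken ends, went the other way. Rad50 ranged from 7.75 to 8.04 (median 7.88) on the 6 E13 arrays and read 8.41, 8.32, 8.36, 8.35 and 8.36 on E16 replicates 1 to 5. All 5 E16 arrays were above all 6 E13 arrays, and the E16 arrays lay within 0.1 of each other. The mean rose from 7.88 ± 0.11 (SD, n = 6) to 8.36 ± 0.0334 (SD, n = 5), or by 0.48 on the log2 scale (limma, adjusted p = 0.00115, SE 0.092), and 2 further probes of Rad50 were each detected on 2 of 11 arrays and were not tested. The other tested genes of recombination were not called. Brca2, a tumour suppressor of this route, differed by -0.14 (95% interval -0.48 to 0.19), and Palb2, which links Brca1 with Brca2, by -0.14 (95% interval -0.39 to 0.11). For Rad51c the difference was -0.23 (95% interval -0.46 to -0.01, adjusted p = 0.123 in limma), and for the exonuclease Exo1, detected on 3 arrays of each stage, it was -0.03 (95% interval -0.33 to 0.28). Bard1, the partner of Brca1, was detected on 1 array of each stage, and Nbn, a partner of Rad50, on none of 11 with any of its 3 probes. Xrcc2 had no named probe and was not analysed here.

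**Figure D2:**
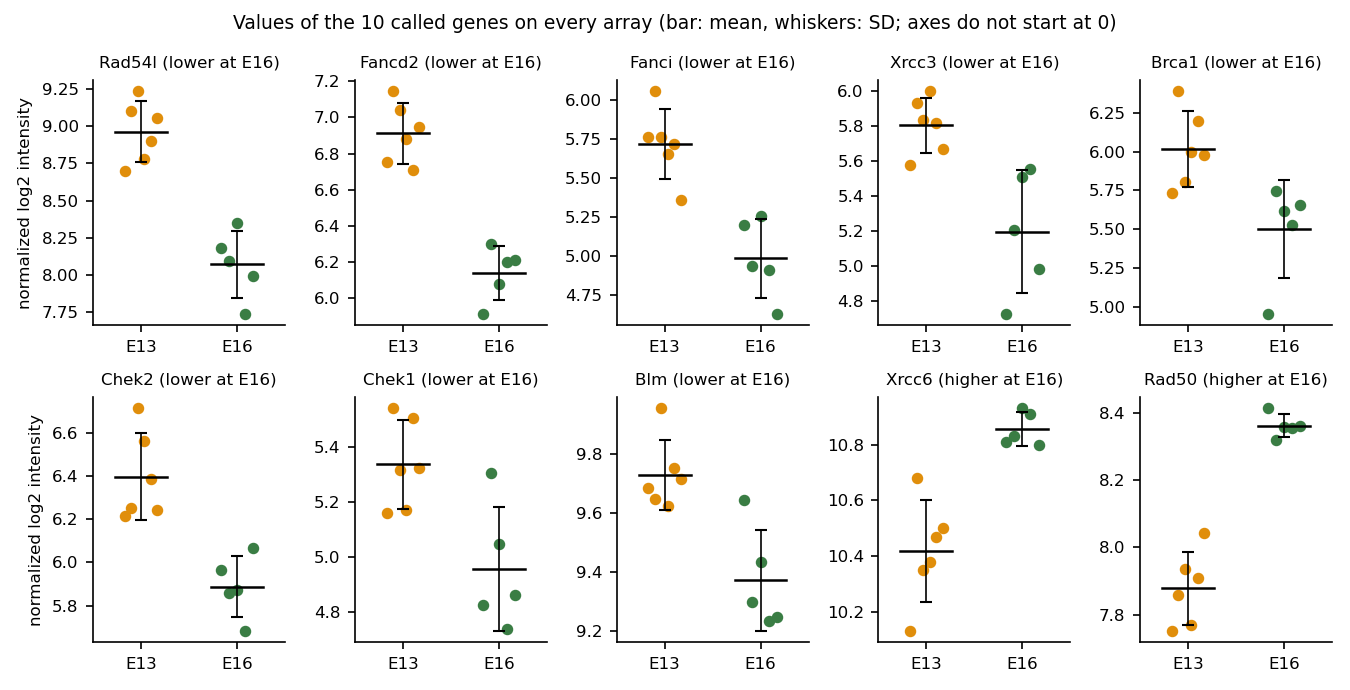
Normalized log2 intensity of the 10 called genes on every array, with 6 points at E13 and 5 at E16, the mean as a bar and the SD as whiskers. Each panel has its own axis, which does not start at 0, and the stages do not overlap for Rad54l, Fancd2, Fanci, Xrcc3, Chek2, Xrcc6 and Rad50.

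Of the 31 tested genes, 5 had every E13 array above every E16 array (Rad54l, Xrcc3, Fancd2, Fanci and Chek2) and 2 had every E16 array above every E13 array (Rad50 and Xrcc6). Over all genes tested these shares were 8.80% and 8.16%. Xrcc3 and Fanci met the detection rule through the E13 arrays, where they were higher, so their lack of overlap is a description. Among the 25 genes detected on all 11 arrays the counts were 3 and 2, and the shares of all such genes were not computed here.

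In the Fanconi route 6 of 7 genes were tested, 2 fell, 0 rose and 4 were not called, with a median difference of -0.44. The 2 that fell, Fancd2 and Fanci, are partners in the clamp that the core complex marks with ubiquitin at a crosslink. Fancd2 ranged from 6.71 to 7.15 (median 6.91) on the 6 E13 arrays and read 5.91, 6.30, 6.08, 6.20 and 6.21 on E16 replicates 1 to 5. The stages were apart by more than the range of the E16 arrays, and the mean went from 6.91 ± 0.167 (SD, n = 6) to 6.14 ± 0.149 (SD, n = 5), a decrease of 1.71-fold (log2 difference -0.77, SE 0.12, adjusted p = 0.000215 in limma). A second probe of Fancd2 gave -0.98 (adjusted p = 0.000847 over all detected probes, limma). Fanci ranged from 5.36 to 6.06 (median 5.74) on the 6 E13 arrays and read 5.20, 4.93, 5.25, 4.91 and 4.63 on E16 replicates 1 to 5. Fanci was detected on 2 of 5 E16 arrays, with no overlap between the stages, and its decrease was 1.66-fold (limma, adjusted p = 0.00151, log2 difference -0.73, SE 0.145). The probe met the detection rule through the E13 arrays and its E16 values lie close to background, so the size is a description.

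The genes of the Fanconi core complex, which places that mark, were not called. Fanca differed by -0.48 (95% interval -0.93 to -0.03, adjusted p = 0.108 in limma). Fanca ranged from 6.75 to 8.05 (median 7.62) on the 6 E13 arrays and read 7.03, 7.21, 7.46, 6.56 and 6.80 on E16 replicates 1 to 5. Its lowest E13 value was on replicate 1, and without that array the gene was called lower (-0.63, adjusted p = 0.0215 in limma). Fancc differed by -0.40 (95% interval -0.74 to -0.05, adjusted p = 0.0845 in limma), was detected on 2 of 5 E16 arrays, and was called without E13 replicate 2 (-0.47, adjusted p = 0.0485) or E16 replicate 5 (-0.51, adjusted p = 0.0236). Fancg differed by -0.10 (95% interval -0.46 to 0.27), and Fancl, the ubiquitin ligase of the complex, by -0.06 (95% interval -0.50 to 0.38). The 1 probe of Fancb was detected on none of the arrays.

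In the checkpoint group, Chek2 and Chek1 fell, Atm was not called and Atr was detected on 0 of 11 arrays with its 1 probe. Chek2 ranged from 6.22 to 6.71 (median 6.32) on the 6 E13 arrays and read 5.97, 5.86, 5.87, 5.68 and 6.07 on E16 replicates 1 to 5. Every E16 array lay below the lowest E13 array, and Chek2, the kinase that Atm activates, differed by -0.51 (SE 0.126, adjusted p = 0.00711 in limma). A second, dimmer probe of Chek2, detected on 4 of 5 E16 arrays, gave -0.23 and was not called (adjusted p = 0.432, limma). Chek1, the kinase that Atr activates, was detected on every E13 array but on only 1 of the 5 E16 arrays. Chek1 ranged from 5.16 to 5.54 (median 5.32) on the 6 E13 arrays and read 4.83, 5.30, 5.05, 4.74 and 4.86 on E16 replicates 1 to 5. E16 replicate 2 lay inside the E13 range and the other E16 arrays below it, and the difference was -0.38 (SE 0.128, adjusted p = 0.0389 in limma). The brightest probe of Chek1 met the detection rule through the E13 arrays and its E16 values lie close to background, so the size is a description. The call was lost in 8 of the 11 fits that left out 1 array, which were those without E13 replicate 2, 3, 5 or 6 or without E16 replicate 1, 3, 4 or 5 (adjusted p between 0.0515 and 0.0886, limma). A second probe of Chek1 was detected on 5 of 6 E13 arrays and 0 of 5 E16 arrays and was at least 1.15-fold lower at E16, with measured means of 5.36 and 4.67. This probe passed the detection rule through E13 alone, so its difference is a description and no support for the other probe. For this bound an undetected E16 array was set to the higher of its own value and the lowest detected signal on that array. Atm, the kinase that responds to double-strand breaks, differed by 0.13 (95% interval -0.12 to 0.38), and the 4 detected probes of Atm gave between -0.07 and 0.13.

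End joining had 3 tested genes of 5. Xrcc6 encodes a subunit of the Ku ring that binds free DNA ends, and it rose. Xrcc6 ranged from 10.13 to 10.68 (median 10.42) on the 6 E13 arrays and read 10.81, 10.83, 10.93, 10.91 and 10.80 on E16 replicates 1 to 5. All E16 arrays were above the highest E13 array, E13 replicate 1 was the lowest, and the mean rose from 10.42 ± 0.185 (SD, n = 6) to 10.86 ± 0.0599 (SD, n = 5), or by 0.44 on the log2 scale (limma, adjusted p = 0.002, SE 0.0894). Its partner in the ring, Xrcc5, had 1 probe, detected on 0 of 11 arrays, so the level of the partner was not measured. The DNA-dependent kinase Prkdc, which Ku recruits, differed by -0.10 (95% interval -0.39 to 0.19), and Lig4, the ligase that seals the ends, by -0.01 (95% interval -0.28 to 0.26). Xrcc4, the partner of Lig4, was detected on 0 E13 arrays and 2 E16 arrays with 1 of its 2 probes and was not tested.

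Of the mismatch genes, 2 of 2 were tested and neither was called (0 at an unadjusted p under 0.05 in limma). Msh6 ranged from 10.56 to 10.72 (median 10.64) on the 6 E13 arrays and read 10.60, 10.73, 10.80, 10.69 and 11 on E16 replicates 1 to 5. The groups overlapped, with E16 replicate 5 the highest of all 11 arrays. Msh6, which recognises mismatches, differed by 0.12 (95% interval -0.04 to 0.29). Pms2, an endonuclease of mismatch repair, differed by -0.02 (95% interval -0.21 to 0.17), with SDs of 0.0613 at E13 and 0.0958 at E16. These intervals bound a difference of either gene to less than 0.3 on the log2 scale.

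All 8 excision genes were tested, 0 fell and 0 rose, and their median difference was -0.13. At an unadjusted p under 0.05 in limma 3 of the 8 were lower (Parp1, Apex1 and Xpa) and 0 higher, beside the 20.0% and 18.4% of all genes. In base excision, Ung removes uracil and differed by 0.09 (95% interval -0.27 to 0.46), and Apex1, which nicks the strand at the empty site, by -0.23 (95% interval -0.46 to -0.00, adjusted p = 0.127 in limma). The scaffold protein Xrcc1 differed by -0.19 (95% interval -0.40 to 0.02), and its partner Lig3, a ligase, by -0.00 (95% interval -0.21 to 0.20). Parp1 ranged from 11.95 to 12.26 (median 12) on the 6 E13 arrays and read 12.03, 11.98, 11.84, 11.80 and 11.67 on E16 replicates 1 to 5. E16 replicates 1 and 2 lay within the E13 range, and Parp1, which senses strand breaks, differed by -0.19 (95% interval -0.36 to -0.01, adjusted p = 0.109 in limma). Apex1 was called lower without E16 replicate 4 (-0.31, adjusted p = 0.0318 in limma), the array on which it was highest at E16. In nucleotide excision, the damage sensor Xpc differed by -0.07 (95% interval -0.26 to 0.12), the nuclease subunit Ercc1 by 0.15 (95% interval -0.06 to 0.37) and Xpa, which checks the lesion, by -0.21 (95% interval -0.39 to -0.03, adjusted p = 0.0793 in limma). Xpa was called without E16 replicate 1 (-0.26, adjusted p = 0.0313 in limma).

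Several probes were detected for 15 of the 31 genes, 53 probes for the 31 genes in all, and each was also tested on its own. Of these probes 13 were lower and 4 higher, beside 11.9% and 10.7% of all 20599 detected probes. For 5 genes (Chek2, Fancl, Parp1, Xpa and Xrcc6) some probes were called and others were not, and for 0 genes were probes called in opposite directions. Xpa had the widest gap. Its bright probe gave -0.21, while a dim probe, found on 2 E13 arrays and on every E16 array, ranged from 4.77 to 5.19 (median 5.07) at E13 and read 5.42, 5.66, 5.78, 6.26 and 6.11 on E16 replicates 1 to 5. The dim probe was higher on every E16 array than on any E13 array (difference 0.82). It met the detection rule through the E16 arrays, and with 4 of 6 E13 arrays not above background the size is a description, and which transcripts each probe reads was not analysed here. Fancl ranged from 6.65 to 7.50 (median 6.89) on the 6 E13 arrays and read 6.74, 6.43, 6.50, 7.24 and 7.49 on E16 replicates 1 to 5 with its brightest probe, where the groups overlapped. Of the 4 detected probes of Fancl 1 was lower (-0.49, adjusted p = 0.0443, limma) and 3 were not called, with differences from -0.42 to -0.06. Of the 3 probes of Parp1, 1 was lower (-0.41, adjusted p = 0.0281, limma), and the other differences were -0.19 and -0.21. The 3 probes of Xrcc6 gave 0.44, 0.24 and 0.43, and the middle one was not called.

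**Figure D3:**
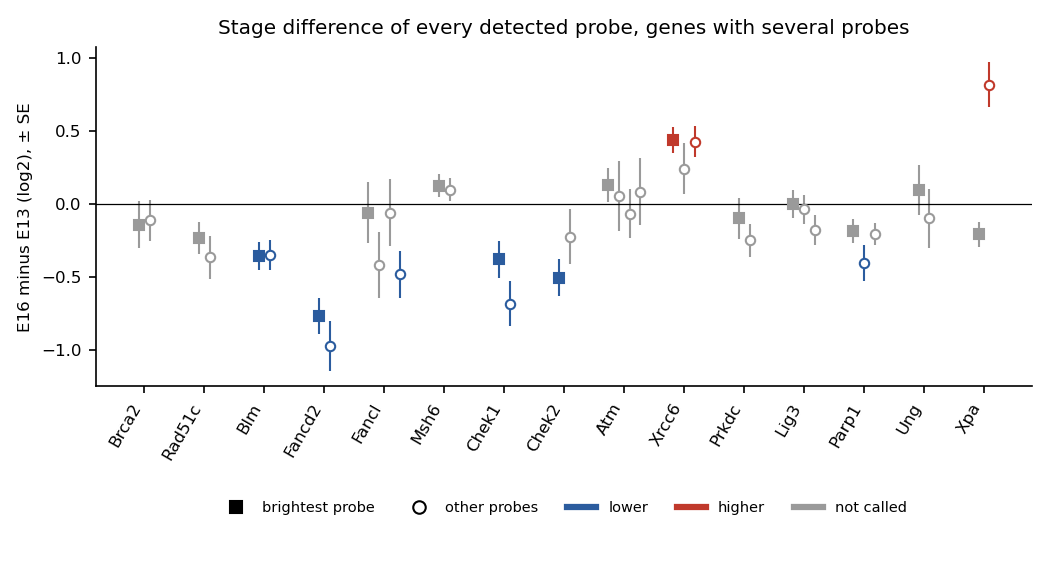
Difference between the stages, E16 minus E13 on the log2 scale with its SE, for every detected probe of the 15 genes with several. Squares are the brightest probe of a gene, which stood for it in the test per gene, and open circles are the other probes, and the dim probe of Xpa stands at 0.82 against -0.21 for the bright one.

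Further genes of the same routes and of translesion synthesis, the copying of damaged templates, were taken from a list of 124. Of these, 95 were tested, with a median difference of -0.09. Of the 95 genes, 19 were lower (20.0%) and 3 higher (3.16%), beside 14.1% and 13% of all genes tested. Among the 85 of them detected on all 11 arrays 15 were lower (17.6%) and 3 higher (3.53%), beside 13.7% and 13.7% of all such genes. By route, 31.6% of the further genes tested were lower in recombination, 26.7% in base excision, 20% in the checkpoint and 18.2% in translesion synthesis. The lower share was 16.7% in the Fanconi route, 14.3% in mismatch repair and in end joining, and 6.67% in nucleotide excision. These shares stand beside the 14.1% of all genes tested. In recombination 6 of 19 fell, among them the Rad54l relative Rad54b (-0.81), Rad51ap1 (-0.70) and Swi5 (-0.60), detected on 3 of 5 E16 arrays, and Slx4, a scaffold for nucleases that was chosen after its value was seen, rose by 0.31. Usp1, which removes the ubiquitin mark from Fancd2 and Fanci, was the 1 of 6 further Fanconi genes that fell (-0.39, adjusted p = 0.006, limma). These 6 genes had a median difference of 0.08, with 2 of them below 0, against -0.44 for the 6 tested Fanconi genes of the 38. In the checkpoint 3 of 15 fell, with Clspn, the adaptor between Atr and Chek1, at -0.89 (adjusted p = 0.000345, limma), Tipin at -0.38 and Trp53bp1 at -0.25.

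Base excision had 4 further genes of 15 that fell. The nuclease Fen1 (-0.84, adjusted p = 1.36e-05, limma) and the ligase Lig1 (-0.65) also process Okazaki fragments at the replication fork, and the glycosylase Neil3 (-0.57) was detected on 1 of 5 E16 arrays. In end joining 1 of 7 fell, the polymerase Polq (-0.48, detected on 2 of 5 E16 arrays), and 1 rose, Aplf, a factor that binds Ku (0.49, adjusted p = 0.00302, limma). Neil3, Polq and, in recombination, Swi5 met the detection rule through the E13 arrays, so the sizes of their decreases are descriptions. In nucleotide excision 1 of 15 fell, Cetn2 (-0.61), which also belongs to centrioles, and 1 rose, the damage sensor Ddb2 (0.69, adjusted p = 0.00498, limma). Pold2, a subunit of a replicative polymerase, was the 1 of 7 mismatch genes that fell (-0.36). Of 11 translesion genes 2 fell, the ubiquitin ligase Rad18 (-0.74) and the polymerase Polk (-0.42).

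**Figure D4:**
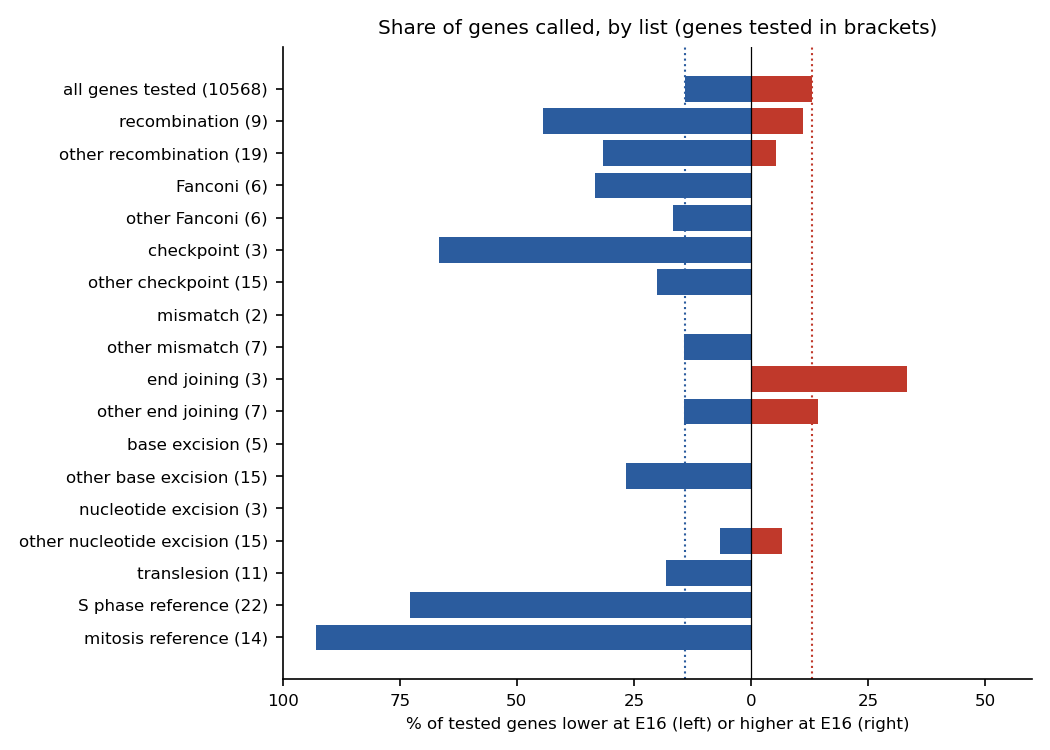
Share of tested genes called lower (blue, left) or higher (red, right) at E16 in each route, in the further genes of that route (other), and in reference lists, with the number tested in brackets. Dotted lines mark the shares of all 10568 genes, 14.1% lower and 13% higher, and the mitosis list reaches 92.9% lower.

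Markers of dividing cells were lower on the same arrays. Of 22 tested genes of S phase 16 fell and 0 rose (median difference -0.57), and of 14 tested genes of mitosis 13 fell and 0 rose (median -1.34). The array medians of the S phase list, relative to the E13 mean, lay between -0.16 and 0.26 at E13 and between -0.80 and -0.48 at E16, and those of the 31 repair and checkpoint genes between -0.08 and 0.08 at E13 and between -0.21 and -0.08 at E16. For the Fanconi genes these medians lay between -0.23 and 0.09 at E13 and between -0.56 and -0.35 at E16. The stages overlapped in recombination (-0.22 to 0.06 at E13 and -0.36 to -0.21 at E16), in the checkpoint (-0.18 to 0.21 and -0.60 to -0.03) and in base excision (-0.15 to 0.16 and -0.21 to -0.02). The part of the S phase decrease in the decrease of the repair genes was not tested.

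**Figure D5:**
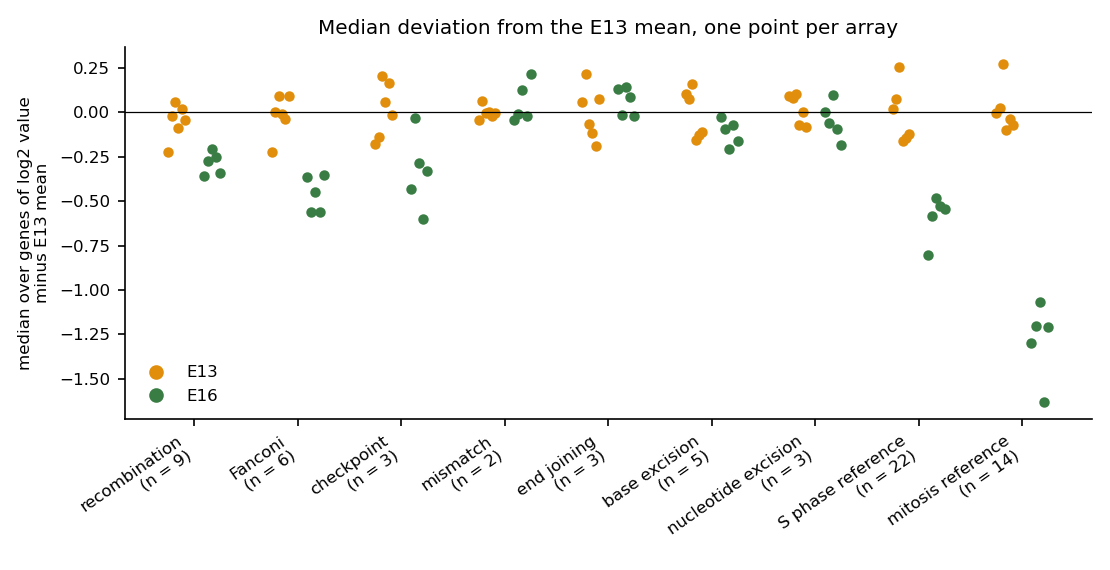
Median over the tested genes of a list of the log2 value minus the gene's E13 mean, 1 point per array, with the number of genes under each list. The E16 points of the S phase and mitosis lists lie below all E13 points, those of the Fanconi genes lie between -0.56 and -0.35, and those of recombination, checkpoint, mismatch, end joining and both excision routes overlap the E13 points.

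Each array detected between 43.6% and 45.5% of 45281 probes. Eomes, the transcription factor that defines basal progenitors, was detected on all 11 arrays, with means of 11.12 at E13 and 10.37 at E16, and 8 of 12 tested basal progenitor markers fell and 2 rose. Cajal-Retzius cells are among the earliest neurons of the cortex. Of 8 listed markers of these cells 6 were tested and 6 fell (median -2.74), Nhlh2 was detected on no array, and their summed raw intensity lay between 12300 and 24100 at E13 and between 3170 and 5650 at E16. The 6 named red cell markers summed to between 45.6 and 935 at E13 and between 595 and 2080 at E16, with Hba-x and Hbb-bh1 detected on no array. Of these markers 1 was tested and rose (Hba-a1, 2.48, adjusted p = 0.00643 in limma). Of 8 endothelial and mural markers 0 were bright enough to test, and 6, Pecam1 and Cdh5 among them, were detected on no array. Of 7 meningeal and choroid plexus markers 1 was tested and fell (Otx2, -1.53), Col1a1 and Lum were detected on no array, and the sums did not overlap (172 to 547 at E13 and 66.5 to 123 at E16). Of 12 radial glia markers 4 fell and 3 rose, and of 9 tested neuron markers 2 fell and 1 rose. Summed raw intensity of the neuron markers lay between 62000 and 96600 at E13 and between 60100 and 79200 at E16. For the basal progenitor markers it lay between 38600 and 57200 at E13 and between 28400 and 39800 at E16. For the radial glia markers it lay between 4020 and 6660 at E13 and between 4680 and 5750 at E16. Such sums depend on the probes of each list and do not give shares of cells. Of 5 oligodendrocyte lineage markers 2 were tested and Olig1 rose (1.32, detected on 2 of 6 E13 arrays), with sums of 51.2 to 107 at E13 and 102 to 148 at E16, and Olig2 and Sox10 were detected on no array. Of 6 tested interneuron markers 2 fell and 1 rose, with sums of 202 to 705 and 274 to 498. Of 2 tested microglia markers 0 were called (0 at an unadjusted p under 0.05 in limma), and C1qa, C1qb, Cx3cr1 and Tyrobp were detected on no array. E13 replicate 1 and E16 replicate 3 had the highest Cajal-Retzius medians of their stages, and without both arrays 8 of the 31 genes were lower and 2 higher, with Chek1 no longer called (adjusted p = 0.0502 in limma) and Fanca called (-0.74, adjusted p = 0.00967). The part of these other cells in the repair gene differences was not tested.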

How the data were processed

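Sorted basal progenitors were measured on 6 E13 and 5 E16 arrays. The deposited raw table held linear intensities of 45281 probes, and between 26.9% and 29.2% of those on an array were negative, as left by a background subtraction ahead of deposit. Per the file headers, the deposited table also gave each probe a detection p-value on each array. The authors' deposited value table held log2 values of some of these probes, with the same distribution on every array, and it was used as an alternative only. The scanner software and its settings were not given in the sources read for this work. Of the probes, 34885 had 1 gene symbol in the platform table, 18 had several and 10378 were unnamed here.

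Intensities were background corrected with normexp, given an offset of 16, quantile normalized and taken to log2 (neqc, limma 3.58.1, R 4.3.3). A detection p-value under 0.05 on at least 5 arrays kept 20599 probes, 17180 of them with a gene, and the brightest probe of a gene stood for it. The stages were compared with lmFit and eBayes with a trend, two-sided, with Benjamini-Hochberg adjustment over all 10568 genes or over all detected probes, at a threshold of 0.05. The steps were tested on simulated data. Precision is limited by the number of arrays, with a median SE of 0.126 over the genes tested.

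The 38 genes, the other gene lists and the rule for named genes were chosen with earlier results of these data known. Values on every array were given for the called genes with the 3 largest differences of each route and for genes whose probes disagreed, and further repair genes were named up to 3 per route. Rad50, Blm, Fanca and Msh6 were shown by array after their values were seen. Counts were planned for each route, and the pooling of routes was not planned. The alternatives changed the background correction, scaling, detection filter, probe choice, variance trend, array weights, replicate block and arrays left out. An alternative without E13 replicate 1 and E16 replicate 3, and one without E16 replicates 1 and 2, were chosen after seeing the data. Promoter windows came from RefSeq (GRCm38.p6).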

Additional observations from a re-analysis of the deposited data

Results flagged for a closer look

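On 3 occasions the highest or lowest array of a stage stood apart from the rest, among 62 gene and stage groups tested, and chance marks about 5% of groups. For Brca1, E16 replicate 1 was low, at 4.95 on the log2 scale against 5.53 on the nearest E16 array, a gap of 0.723 of the range of its stage. For Lig3, E16 replicate 5 was high, at 9.85 against 9.65, a gap of 0.71 of the range. For Ung, E13 replicate 3 was high, at 8.58 against 8.0, a gap of 0.632 of the range. No cause was tested.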

How the results depend on the processing

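Over 22 alternatives, 20 of them planned, 0 values changed direction while called. Of 669 values for single genes 608 kept their direction and their side of the threshold, 17 lost a call, 10 gained one and 34 changed sign without being called. Fewer genes are tested in the authors' value table and with detection under 0.01 on every array, and both gave 4 lower genes, of 25 and 24 tested, in place of 8 of 31, with 2 for recombination, 1 for the Fanconi route and 1 for the checkpoint, beside 13.9% and 14.1% lower of all genes tested there. Recombination also had 2 without E16 replicates 1 and 2, a fit that gave 1 lower gene each for base and nucleotide excision and 11 lower further repair genes in place of 19, 10 of them among the 19. The checkpoint had 1 lower gene in place of 2 with array weights, with the replicate block and without E13 replicate 1 and E16 replicate 3. Base excision had 1 lower gene where every probe was tested, and nucleotide excision 1 with array weights. The further repair genes that were higher numbered 5 in place of 3 with every probe and with array weights. Centring each array on its median moved the median difference of the 31 genes from -0.14 to -0.21 and that of all genes to -0.05, and all genes split into 1616 lower and 966 higher (37.4% higher) in place of 1495 and 1373 (47.9% higher). Where each array was left out in turn, lower genes of the 31 numbered 6 to 9, with 1 to 2 for the checkpoint, 0 to 1 for base excision and 0 to 1 for nucleotide excision, and the further repair genes that were higher numbered 3 to 5. With the replicate number as a block, 1293 of all genes were lower and 1161 higher, and Chek1 was not called (adjusted p = 0.053 in limma). Arrays that share a number were not paired by any label, their deviations correlated between -0.100 and 0.143, and 0 of the 5 numbers had every array closest to its own. Causes of these shifts were not tested. Signal near background limits Xrcc3, Brca1, Fanci, Fancc, Chek1 and Exo1, and 7 of the 38 genes could not be tested.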
